A study of Rattus norvegicus with 24 samples.

Results

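Hox genes encode the homeodomain transcription factors that give cells their position along the head-to-tail axis, and the genes read here were taken from the unique molecular identifier (UMI) count files of rat dorsal root ganglion (DRG) neurons. The members were the genes whose symbol is Hox, a cluster letter from a to d and a paralogue number, and that had at least 1 UMI in a cell that passed 3 filters (500 or more genes, 1000 or more UMIs, mitochondrial share below 5%). Of 32 gene entries with such a name, 28 had a UMI, among 32881 gene entries that all files share. They were 10 HoxB, 9 HoxC and 9 HoxD genes, from clusters on chromosomes 10, 7 and 3 of the rat (RefSeq, assembly GRCr8), and the 4 without a UMI were HoxA genes.

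In mammals the Hox genes lie in 4 clusters, and members with the same number in different clusters are paralogues, copies of 1 ancestral gene. Low-numbered genes are known to be used from the hindbrain backwards and higher-numbered genes only in more caudal segments, so that groups 9 to 11 are the ones textbook maps place at the lumbar cord, and groups 12 and 13 at its end and the tail. In sensory and motor neurons, Hox proteins act together with TALE homeodomain cofactors (the Pbx, Meis and Pknox proteins), and Polycomb complexes keep unused Hox genes silent.

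Neurons came from male Sprague-Dawley rats in which the tibial and common peroneal branches of the sciatic nerve were crushed and the sural branch was spared (spared nerve crush, SNC). Fluorescently labelled neurons were picked one at a time from L4-5 DRG after sham surgery (4 samples) or at 1 d (4 samples), 3 d (3 samples) or 7 d (5 samples) after SNC, giving 930 cells. Crushed and uncrushed neurons were picked into the same libraries and the cell names do not tell them apart, so a sample is a mixture of both. By the labels' counts of directly and indirectly injured cells, SNC 7 d sample 19-1 was mostly direct and 19-2 mostly indirect. A further 7 libraries of DRG neurons, added later to the series and labelled as sham at day 0 (3), day 1 (2), day 3 (1) and day 7 (1), gave 503 cells; their labels give neither a ganglion level nor a dye.

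A sample's UMIs, summed over its cells, numbered 4002503 to 28975829 in the labelled samples and 14004136 to 40732975 in the added libraries, and the median cell held 239286 and 340145 UMIs. No cell name was shared between libraries and no 2 cells had identical counts. Pan-neuronal markers (8 genes, all detected) summed to 8665 to 11728 CPM (UMI counts scaled to the sample's total) in the labelled samples and 6869 to 7822 CPM in the added libraries. Markers of satellite glia and Schwann cells (10 genes, of which Kcnj10 was at 0 in the sham, 1 d and added groups) summed to 329 to 1488 CPM and 145 to 1614 CPM. Fibroblast (5 genes), endothelial and mural (4 of 5 genes detected, Cldn5 at 0) and immune markers (6 genes) each summed to at most 31.9 CPM in any labelled sample and at most 46.3 CPM in any added library, and red cell markers (2 genes) to at most 24.4 CPM in any sample. Levels below are CPM of a sample's summed UMIs; each UMI tags the 3′ end of 1 transcript, so a level is not divided by gene length. In such sums, fewer cells of a type and less RNA per cell cannot be told apart.

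All 28 Hox genes together made up 242 ± 39.8 CPM of the labelled samples (SD, n = 16), with a lowest sample at 163, a median of 245 and a highest at 297. The HoxC genes gave 94.7 ± 15.5 CPM and the HoxD genes 95.9 ± 23.7 CPM, which left 51.7 ± 15.7 CPM for HoxB. By paralogue group, group 9 was highest with 73.7 ± 8.99 CPM (30.8 ± 3.2% of the Hox UMIs), followed by group 4 with 51.9 ± 12.7 CPM, group 10 with 38.6 ± 16.0 CPM and group 7 with 32.0 ± 11.3 CPM. Paralogue group 11 held 2.45 ± 4.10 CPM (1.48 ± 1.39 CPM over 15 samples without sham sample 4), and groups 12 and 13 together held 0.0231 ± 0.0529% of the Hox UMIs. Among the HoxB, HoxC and HoxD genes of L4-5 neurons the levels thus dropped after group 10, and the low-numbered group 4, mostly Hoxd4, stood beside the lumbar groups. The HoxA genes, which could not be read, are missing from every group sum.

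The genes above 1 CPM numbered 20 (6 HoxB, 7 HoxC and 7 HoxD), and 6 of them carried 78.8 ± 3.86% of the Hox UMIs. One of the 20, Hoxc11, averaged 0.251 CPM without sham sample 4, under that limit. The level of Hoxc9 (ENSRNOG00000016199), a group 9 gene known to separate thoracic from limb-level motor neurons, was 52.4 ± 5.81 CPM, between 37.7 and 63.7 CPM with a median of 53.3 CPM. Hoxd4 (ENSRNOG00000001578) stood at 46.4 ± 12.8 CPM, between 31.9 and 72.1 CPM with a median of 42.5 CPM. Hoxb7 (ENSRNOG00000007611) stood at 32.0 ± 11.3 CPM, between 10.5 and 59.1 CPM with a median of 30.9 CPM. These 3 genes, like Hoxd9 and Hoxc10 below, were above 10 CPM in each of the 16 samples. Hoxc9 had the smallest SD of the 3 for the largest mean.

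Next came the lumbar genes of groups 9 and 10. Hoxd9 was at 21.1 ± 7.33 CPM (12.2 to 38.4, median 19.2) and Hoxc10 at 20.9 ± 5.83 CPM (11.5 to 29.6, median 21.4). Hoxd10 (ENSRNOG00000001581) was at 17.6 ± 12.9 CPM but ranged from 2.66 to 49.2 CPM around a median of 12.9 CPM. Hoxc8 was at 13.4 CPM (7.24 to 25.7), Hoxb5 at 9.33 ± 4.23 CPM and Hoxd1 at 6.19 ± 7.41 CPM. The other 11 genes above 1 CPM lay between 1.15 CPM (Hoxb3) and 3.57 CPM (Hoxb4). The order of neighbours varied between samples: the mean difference within samples was smaller than its SD for each neighbouring pair from Hoxc9 down to Hoxb3. An example is 14.4 ± 16.6 CPM between Hoxd4 and Hoxb7, with Hoxd4 higher in 14 of 16 samples. This SD is the spread of single samples, and whether the mean levels differ was not tested. The next step down, from Hoxb3 to Hoxb9, was larger than its SD (0.998 ± 0.587 CPM, higher in 15 of 16 samples). The remaining 8 genes (Hoxb1, Hoxb6, Hoxb9, Hoxb13, Hoxc12, Hoxc13, Hoxd12 and Hoxd13) averaged at most 0.148 CPM, with 1 to 157 UMIs over all cells; 23 of the 28 genes had at least 3 UMIs in at least 2 libraries.

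**Figure D1:**
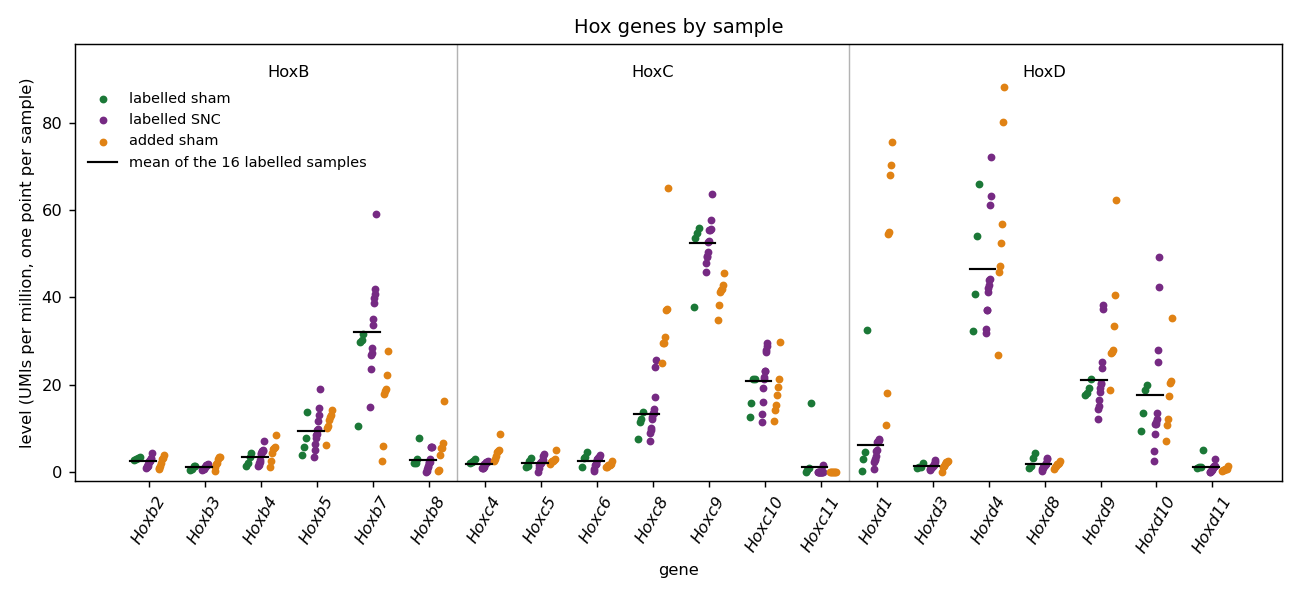
Level of the 20 Hox genes above 1 CPM (vertical axis, CPM) by gene (horizontal axis, grouped by cluster), with 1 point per labelled sham sample, labelled SNC sample or added sham library and a bar for the mean of the 16 labelled samples. Hoxc9, Hoxd4 and Hoxb7 stand highest in labelled neurons (52.4, 46.4 and 32.0 CPM), and Hoxd1 points of the added libraries reach 75.6 CPM.

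Levels rose and fell several times along a cluster. Read from Hoxd1 towards Hoxd13, the HoxD means were 6.19 CPM for Hoxd1, 1.39 CPM for Hoxd3, 46.4 CPM for Hoxd4, 1.88 CPM for Hoxd8, 21.1 CPM for Hoxd9, 17.6 CPM for Hoxd10 and 1.23 CPM for Hoxd11. Hoxd4 was above both Hoxd3 and Hoxd8 in 16 of 16 samples, and Hoxd9 was above Hoxd8 in 16 of 16. In HoxB, Hoxb7 was above Hoxb6 and above Hoxb8 in 16 of 16 samples, by 31.9 ± 11.3 CPM and 29.2 ± 10.3 CPM. In HoxC the levels climbed to a single top at Hoxc9, which was above Hoxc8 and above Hoxc10 in 16 of 16 samples. Hoxc10 was in turn above Hoxc11 in 16 of 16, by 19.7 ± 7.70 CPM.

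Gene models limit some of these values. In RefSeq (assembly GRCr8) the model of Hoxc6 overlaps those of Hoxc4 and Hoxc5, that of Hoxd4 overlaps Mir10b, Hoxb3, Hoxc11 and Hoxd4 each overlap a model named only by a locus number, and Hoxb5 and Hoxb6 overlap Hoxb5os, so reads in the shared stretches could be given to either gene or to none. The strand setting of the authors' counting is not given in the sources used here. The levels of Hoxb3, Hoxb5, Hoxc4, Hoxc5, Hoxc6, Hoxc11 and Hoxd4 are uncertain to that extent.

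The HoxA genes could not be read. The entries of Hoxa3, Hoxa7, Hoxa9 and Hoxa10, the 4 names that fit the rule without a UMI, held 0 UMIs in every cell. Against 461618961 UMIs in all, 3 counts would be 0.0065 CPM, a limit on counted UMIs only. The entries of Evx1, which lies beside Hoxa13, were also at 0, while Skap2 and Hibadh, on the outer sides of the cluster, had 30.5 ± 8.99 and 72.8 ± 10.7 CPM (SD, n = 16). The part of the gene annotation in these zeros was not tested, and they are not read as absence of HoxA transcripts.

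Single neurons carried several Hox genes at once. The median labelled neuron had UMIs of 7 Hox genes (quartiles 5 and 9, at most 19), and 18 of 930 (1.94%) had none; in the added libraries the median was 9 and 3 of 503 cells had none. After thinning each cell to 20000 UMIs, which left out 44 labelled and 10 added cells, the medians were 2 and 3 genes. A HoxC gene was seen in 92.9% of labelled neurons, a HoxD gene in 92.9% and a HoxB gene in 71.1%, and 66.3% had all 3 clusters. In the thinned cells the same shares were 73.9%, 66.8%, 41.2% and 20.8%, so they depended on depth. Among these 3 clusters, the highest paralogue group with a UMI was group 10 in 66.8% of labelled neurons and group 9 in 20.2%. Group 11 was the highest in 7.42%. After thinning, these shares were 34.5%, 40.6% and 2.37%, so the order of groups 9 and 10 depended on depth.

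The genes differed in how widely they were spread. Hoxc9 had a UMI in 87.6% of labelled neurons and Hoxd4 in 84.7% (55.0% and 46.5% after thinning), while Hoxb7 had one in 52.9% and Hoxd10 in 33.3% (30.1% and 14.9% after thinning). The 46 cells with the most UMIs of a gene, 5% of the labelled neurons, held 24.3% of the Hoxc9 UMIs, 29.7% of the Hoxd4 UMIs, 38.5% of the Hoxb7 UMIs and 68.5% of the Hoxd10 UMIs. Hoxc9 and Hoxd4 were thus broad, and Hoxd10 sat in few cells. Hoxc11 was an extreme case: 22 cells of all 1433 had a UMI of it, and 2 neurofilament-type (NF-like) neurons of sham sample 4 held 171 of its 243 UMIs (70.4%).

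To set the Hox genes against neuron types, cells were clustered without the Hox genes (8 Hox genes of the labelled set and 5 of the added set were taken off the list of variable genes). Labelled cells fell into 10 clusters. They were named from marker lists as NF-like (2 clusters, 91 cells led by Shox2 and Pvalb and 85 led by S100a16 and Kcnv1), peptidergic PEP1-like (187 cells), PEP2-like (194) and PEP3-like (114), nonpeptidergic NP-like (59), somatostatin SST-like (2 clusters, 129 cells) and Cold-like with all 4 of its markers, Trpm8, Foxp2, Cdh8 and Rxfp1, high (29). A last cluster of 42 cells had 8 of 10 glial markers high and stays unnamed. Mrgprd, the classic nonpeptidergic receptor, had only 0.356 CPM in the NP-like cells, which carried Mrgprb4 at 92.1 CPM. The PEP1-like and PEP2-like lists also hold the injury-responsive genes Gal and Sprr1a. The PEP1-like cluster had 5 of 8 markers high (Cck, Kit, Arg1, Gal and Sprr1a), without Tac1, Calca or Atf3, and the PEP2-like cluster 7 of 8, without Calca. The SST-like cluster of 72 cells had 3 of 7 markers high (Nppb, Il31ra and Osmr), without Sst, and that of 57 cells had 5, with Sst. Added cells formed an NF-like cluster (97 cells), 2 NP-like clusters (134), an SST-like cluster (28), a cLTMR-like cluster (17) and 2 unnamed clusters. Of the unnamed ones, cluster 0 (136 cells) had 8 of 10 glial markers high. The cLTMR-like cluster, named from a list for low-threshold C-fibre mechanoreceptors, had 4 of 6 markers high (Tafa4, Zfp521, Gfra2 and Cdh9). Th and Slc17a8, also on that list, were not high in it. Type levels are means over samples with at least 3 cells of the type, given as a description with no test.

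Hoxb7, the most abundant HoxB gene, divided the neurons into types with and types nearly without it. Its level was 57.3 ± 11.9 CPM in NF-like neurons (n = 15 samples), 45.2 ± 16.2 CPM in PEP1-like neurons (n = 16), and 26.8 ± 16.7 and 20.0 ± 14.6 CPM in the PEP3-like and Cold-like types (n = 11 and 5). It was 2.19 ± 2.31 CPM in PEP2-like (n = 16), 1.05 ± 0.906 CPM in NP-like (n = 8) and 0.763 ± 0.830 CPM in SST-like neurons (n = 14). NF-like neurons were above the other cells of their sample in 15 of 15 samples, and PEP2-like, NP-like and SST-like neurons were so in 0 of 16, 0 of 8 and 0 of 14. A Hoxb7 UMI was found in 92.6% of NF-like neurons and in 16.3% of SST-like neurons, at median depths of 488870 and 280997 UMIs. Genes that mark other types were also counted in NF-like neurons. There Sst, the peptide of SST-like neurons, had a UMI in 87.5% of cells at 3.13% of its own-type level, Nppb stood at 1.83%, Mrgprb4 at 6.03% and Mrgprd at 0%. Hoxb7 in SST-like, NP-like and PEP2-like neurons was at 1.14%, 1.38% and 3.78% of its NF-like level, which is below the Nppb share in the first 2 types and between the Sst and Mrgprb4 shares in the third, and values that low are not read as expression.

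The added libraries showed the same division. Hoxb7 was at 35.5 ± 8.20 CPM in their NF-like cells (n = 5) and 39.4 ± 28.1 CPM in cluster 0 (n = 6), against 1.35 ± 1.43 CPM in NP-like (n = 7) and 2.77 ± 4.37 CPM in SST-like cells (n = 6). None of the 17 cLTMR-like cells had a Hoxb7 UMI.

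Hoxb5 and Hoxb8, the genes on either side of the Hoxb6-Hoxb7 pair, followed Hoxb7 only in part. Hoxb5 was highest in NF-like and PEP3-like neurons, at 16.6 ± 7.74 and 15.8 ± 11.4 CPM. In PEP1-like neurons it was at 6.96 ± 6.46 CPM and in PEP2-like neurons at 0.356 ± 0.438 CPM. Hoxb8 was highest in NF-like neurons, at 6.19 ± 4.63 CPM, and at 0.614 ± 0.711 CPM in PEP1-like neurons, where Hoxb7 was high. The added cLTMR-like cells, with no Hoxb7 UMI, carried Hoxb5: it had UMIs in 17 of 17 cells, with a median of 107 CPM and a sample mean of 116 ± 36.0 CPM (n = 4), the highest Hoxb5 level of the 17 clusters. Their Hoxb4 was also high, at 35.9 ± 18.0 CPM. Hoxb2 and Hoxb4 were highest among labelled neurons in the PEP3-like cluster, at 8.97 ± 4.52 CPM and 9.42 ± 5.36 CPM, above the other cells in 11 of 11 and 10 of 11 samples.

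**Figure D2:**
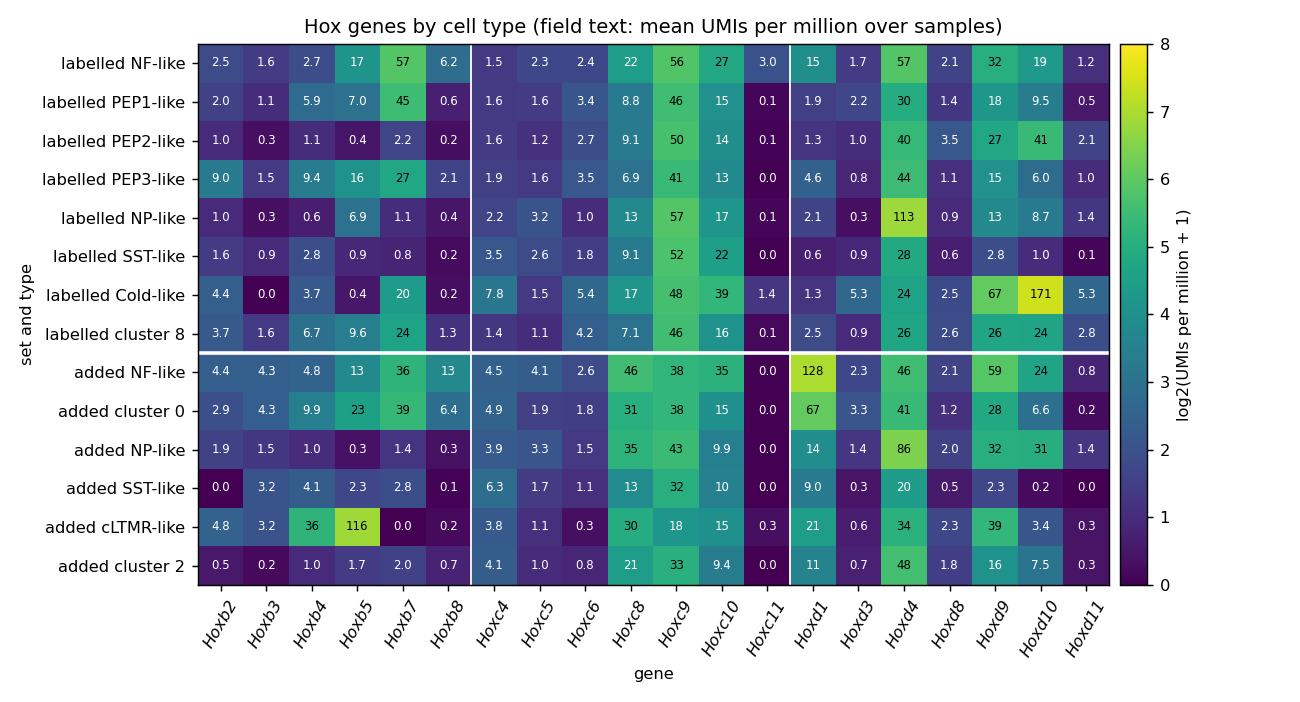
Mean level of each of the 20 Hox genes (columns, grouped by Hox cluster) in each cell type or unnamed cluster (rows, clusters of 1 name merged, labelled neurons above the white line and added libraries below it), coloured by log2(CPM + 1) with the mean CPM written in each field. In the labelled PEP2-like, NP-like and SST-like rows the HoxB values are at most 2.76 CPM except for Hoxb5 in NP-like neurons (6.88 CPM), Hoxc9 lies between 40.6 and 57.1 CPM in the 7 labelled types and falls to 17.6 CPM in the added cLTMR-like row, and Hoxd10 reaches 171 CPM in the Cold-like row.

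The HoxC genes were more even across types. Hoxc9 lay between 40.6 ± 12.1 CPM in PEP3-like and 57.1 ± 11.7 CPM in NP-like neurons, a ratio of 1.41 between the highest and the lowest of 7 types, against 75.1 for Hoxb7 and 168 for Hoxd10. Its lowest sample value in a labelled type was 1.59 CPM, from 3 NF-like cells of 1 SNC 7 d sample, and the lowest values in PEP3-like, Cold-like and PEP1-like neurons were 17.7, 19.6 and 23.8 CPM. In the added libraries it lay between 17.6 ± 14.8 CPM in cLTMR-like and 42.8 ± 7.79 CPM in NP-like cells, a ratio of 2.43. Hoxc10 lay between 12.9 ± 5.74 CPM in PEP3-like and 38.6 ± 3.30 CPM in Cold-like neurons, a ratio of 3.00. Hoxc8 was highest in NF-like neurons (21.6 ± 9.22 CPM, above the other cells in 14 of 15 samples), and within them it stood at 31.5 ± 7.54 CPM in the Shox2 cluster and 13.4 ± 10.9 CPM in the S100a16 cluster. The low HoxC genes Hoxc4, Hoxc5 and Hoxc6 stayed between 1.02 and 7.83 CPM in every labelled type. Hoxc9 was therefore found in each of the labelled types. No sample was labelled as coming from a ganglion level other than L4-5, so its level was not compared with other segments.

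Among the HoxD genes, Hoxd4 was highest in NP-like neurons. Its level there was 113 ± 41.9 CPM, above the other cells in 8 of 8 samples, and in the added NP-like cells 85.6 ± 21.9 CPM, above the others in 7 of 7. The 2 sets of NP-like cells had unlike leading genes: Mrgprb4, Casr and Rbp2, among the top 10 of the labelled cluster, were so in the unnamed added cluster 2, where Hoxd4 was at 48.0 ± 17.2 CPM, above the other cells in 1 of 6 libraries. The lowest labelled type was Cold-like, at 23.8 ± 10.1 CPM. Hoxd9 and Hoxd10 were nearly missing from SST-like neurons, at 2.79 ± 2.48 and 1.02 ± 1.29 CPM, above the other cells in 0 of 14 samples, and at 2.29 ± 1.85 and 0.175 ± 0.286 CPM in the added SST-like cells. Those same labelled SST-like neurons carried Hoxc9 and Hoxc10 at 52.5 ± 11.3 and 22.0 ± 5.28 CPM, above the other cells in 7 of 14 and 9 of 14 samples. In the added SST-like cells Hoxc9 and Hoxc10 were at 31.6 ± 3.62 and 10.1 ± 11.2 CPM, above the others in 0 of 6 and 1 of 6 libraries. The other cells had 41.0 and 19.2 CPM of them, and 36.5 and 18.6 CPM of Hoxd9 and Hoxd10. These 2 HoxC genes were thus lower there than in the other cells but not nearly missing, with a Hoxc9 UMI in 85.7% of cells. Hoxc4 was above the others in 4 of 6 libraries. Of the 20 genes, 7 (Hoxb3, Hoxb5, Hoxb7, Hoxb8, Hoxc8, Hoxc11 and Hoxd1) were highest in NF-like neurons, Hoxc11 through the 2 cells named above.

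**Figure D3:**
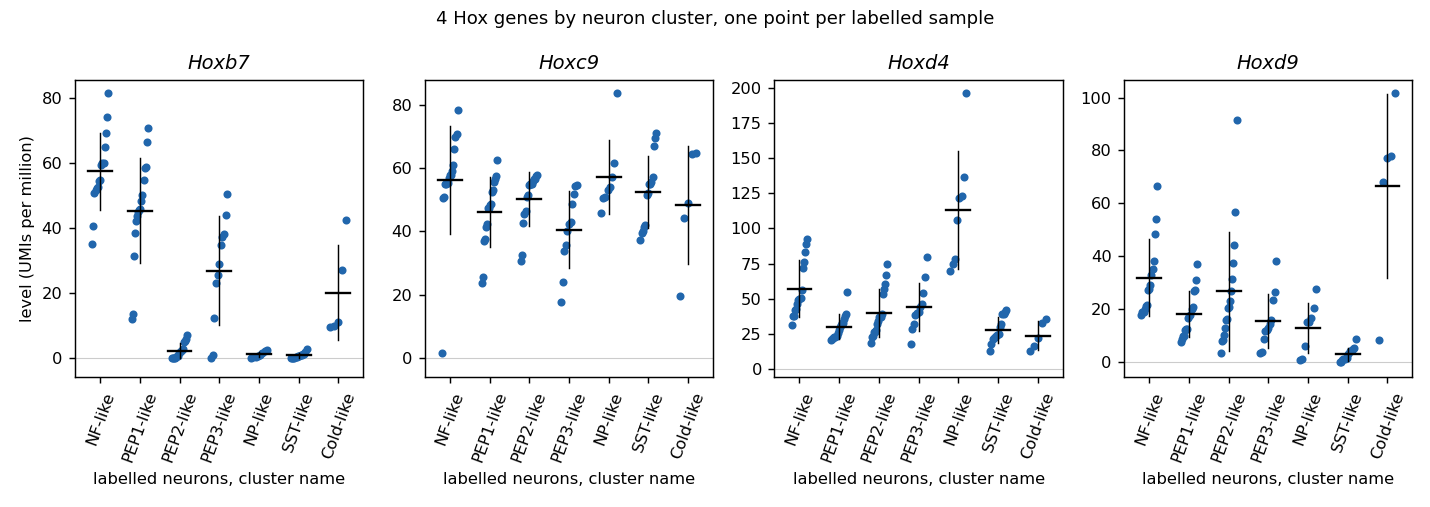
Level (vertical axis, CPM) of Hoxb7, Hoxc9, Hoxd4 and Hoxd9 in 7 neuron types (horizontal axis), with 1 point per labelled sample with at least 3 cells of the type and bars for mean ± SD. Hoxb7 points of PEP2-like, NP-like and SST-like neurons lie near 0, Hoxc9 means lie between 40.6 and 57.1 CPM in every type, Hoxd4 is highest in NP-like neurons, and Hoxd9 is lowest in SST-like and highest in Cold-like neurons.

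Hoxd10, a gene of lumbar limb-level neurons, was high in a minority of cells of several types. It was at 171 ± 163 CPM in Cold-like neurons (n = 5 samples, above the other cells in 5 of 5) and at 41.1 ± 34.8 CPM in PEP2-like neurons (n = 16, above the others in 12 of 16). It was among the 10 genes with the largest fold in the Cold-like cluster although no Hox gene was used to cluster. The Cold-like cells fell apart: 14 of 29 had no Hoxd10 UMI, 3 had up to 13.6 CPM, and 12 had 121 to 1140 CPM. The 12 high cells came from 7 samples and the 17 others from 10. Over all labelled neurons, 620 of 930 had no Hoxd10 UMI and 59 had at least 100 CPM, which held 64.5% of the gene's UMIs. The limit of 100 CPM cuts a range, with 49 cells between 50 and 100 CPM and 36 between 100 and 200 CPM. The 59 high cells were 27 of 194 PEP2-like, 12 of 29 Cold-like, 9 of 176 NF-like, 6 of 187 PEP1-like, 2 of 59 NP-like, 1 of 114 PEP3-like and 0 of 129 SST-like neurons, with 2 of 42 in the unnamed cluster. They made up between 0% of the 48 cells of SNC 7 d sample 9 and 16.7% of the 24 cells of SNC 1 d sample 17-1.

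The cells with high Hoxd10 also averaged more of its 2 neighbours in the cluster. Hoxd9 averaged 73.5 CPM in the 59 high cells and 15.5 CPM in the 871 others, higher in 14 of 15 samples with such a cell. Hoxd11 averaged 9.70 against 0.471 CPM (higher in 10 of 15 samples), with a UMI in 39.0% against 4.13% of cells. Means of some other Hox genes were also higher, each in a minority of the samples. Hoxc11, of another cluster, averaged 6.80 against 0.286 CPM (higher in 6 of 15 samples). Its mean depends on few cells, since the highest single labelled cell had 346 CPM. Hoxd8 averaged 3.27 against 1.64 CPM (7 of 15) and Hoxd3 2.53 against 1.27 CPM (5 of 15). Hoxd4 averaged 30.7 against 39.5 CPM, and Hoxc9 38.1 against 45.3 CPM. The difference in Hoxd9 was also present inside types: its median was 98.8 CPM in 12 high and 7.31 CPM in 17 other Cold-like neurons, 55.9 CPM in 27 high and 7.19 CPM in 167 other PEP2-like neurons, and 69.3 CPM in 9 high and 18.9 CPM in 167 other NF-like neurons. Across the 930 labelled cells, on log2(CPM + 10), r was 0.54 between Hoxd9 and Hoxd10 and 0.45 between Hoxd10 and Hoxd11; across the 503 added cells it was 0.46 and 0.58. These cells share libraries and depth differences, and the median r was 0.08 over the 57 pairs within a cluster and 0.04 over the 133 pairs between clusters in labelled neurons. Hoxb5 with Hoxb7 gave 0.43 and Hoxb7 with Hoxb8 0.38, so the pairs with r above 0.3 in labelled neurons were pairs within 1 cluster, except Hoxb8 with Hoxc8 at 0.32. The added cells differed in this. Several pairs between clusters were above 0.3 there, among them Hoxb7 with Hoxd1 at 0.55 and Hoxb2 with Hoxd1 at 0.33. Their median r was 0.16 within and 0.05 between clusters.

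**Figure D4:**
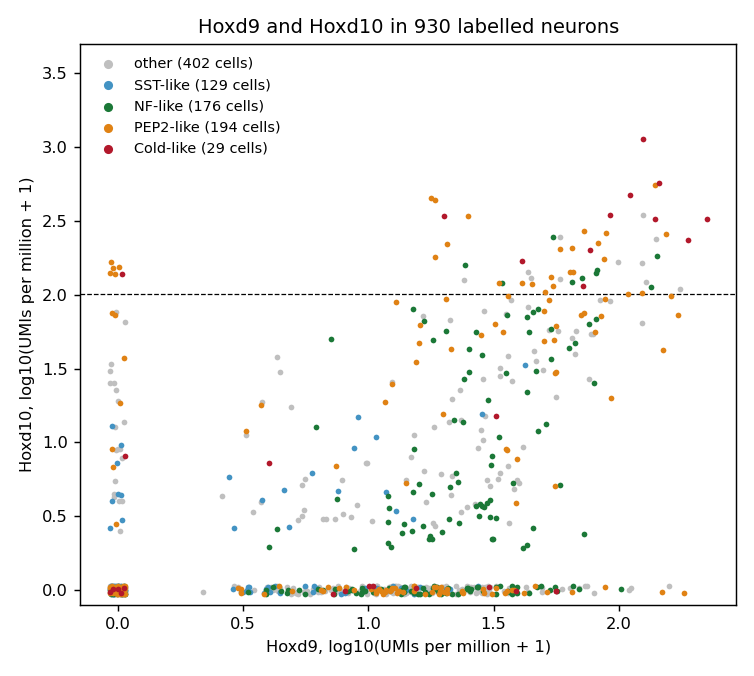
Hoxd9 (horizontal axis) against Hoxd10 (vertical axis), both as log10(CPM + 1), in 930 labelled neurons, with 1 point per cell, slightly jittered and coloured by type, and a dashed line at 100 CPM of Hoxd10. Of the 59 cells above the line, 27 are PEP2-like and 12 are Cold-like, none is SST-like, and most lie to the right, where Hoxd9 is high.

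The start regions of these HoxD genes are shown because Hoxd9 and Hoxd11 averaged higher in the cells with high Hoxd10 and Hoxd4 did not. Hoxd11 had a UMI in only 39.0% of those cells. The sequences are the 250 bases before the annotated start in RefSeq (build GRCr8, which is not the build of the count files), 5′ to 3′ on the plus strand of chromosome 3, with each CG dinucleotide, the site of DNA methylation, in capitals. Hoxd11 is at chr3:79992144-79992393, Hoxd10 at chr3:80001697-80001946, Hoxd9 at chr3:80007756-80008005 and Hoxd4 at chr3:80021636-80021885.
Hoxd11: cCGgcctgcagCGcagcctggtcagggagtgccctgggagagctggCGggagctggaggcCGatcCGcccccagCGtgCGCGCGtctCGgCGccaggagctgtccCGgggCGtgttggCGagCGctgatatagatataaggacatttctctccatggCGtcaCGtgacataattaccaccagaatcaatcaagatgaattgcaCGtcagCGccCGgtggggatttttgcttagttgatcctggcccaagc
Hoxd10: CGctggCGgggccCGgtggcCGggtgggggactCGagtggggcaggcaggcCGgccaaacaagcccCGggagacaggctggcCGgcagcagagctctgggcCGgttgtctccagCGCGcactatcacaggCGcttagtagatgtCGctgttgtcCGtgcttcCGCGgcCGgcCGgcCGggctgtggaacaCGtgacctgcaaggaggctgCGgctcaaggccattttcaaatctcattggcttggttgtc
Hoxd9: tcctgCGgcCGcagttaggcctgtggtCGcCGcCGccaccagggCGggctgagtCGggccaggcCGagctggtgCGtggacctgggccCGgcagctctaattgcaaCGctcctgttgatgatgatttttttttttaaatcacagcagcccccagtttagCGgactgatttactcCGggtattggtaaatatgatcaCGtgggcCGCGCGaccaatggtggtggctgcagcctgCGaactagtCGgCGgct
Hoxd4: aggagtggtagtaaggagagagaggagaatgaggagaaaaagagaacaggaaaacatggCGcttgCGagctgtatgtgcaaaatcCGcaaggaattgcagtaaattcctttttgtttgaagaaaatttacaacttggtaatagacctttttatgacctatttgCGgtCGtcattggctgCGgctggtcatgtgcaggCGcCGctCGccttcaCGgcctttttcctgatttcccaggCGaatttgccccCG

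These windows hold 20 (Hoxd11), 21 (Hoxd10), 20 (Hoxd9) and 12 (Hoxd4) CG dinucleotides, and 16.7%, 15.1%, 16.7% and 31.5% of the 33469 RefSeq promoter windows have at least as many. The count of CG did not set Hoxd9, Hoxd10 and Hoxd11 apart within HoxD, since Hoxd8, Hoxd13 and Hoxd1 have 38, 30 and 25. A sequence entry was matched for 11 of the 28 members (Hoxb1, Hoxc4 and the 9 HoxD genes), with 3 to 38 CG and a median of 20, against 5 in all windows. The letters TGATNNAT, a motif bound by Pbx-Hox pairs, occurred on either strand in 2 of the 11 (Hoxb1 and Hoxd11) and in 7.96% of all windows, and TATAAA in 1 (Hoxd13) and 12.9%. Such matches describe the letters only.

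The comparison of SNC with sham asked whether crush of the sciatic branches moved the Hox genes of these neurons. With edgeR's quasi-likelihood test on the 16 summed samples, no Hox gene passed an adjusted p of 0.05 at 1 d, 3 d or 7 d, among 20 tested; 8 genes were below the filter on low counts. The same held for all genes, with 0 of 14239 called at each time (0.0%), so the members' counts match the background. At an unadjusted p under 0.05 there were 1, 0 and 2 Hox genes at 1, 3 and 7 d (1243, 594 and 476 of all genes), and DESeq2 called 0 Hox genes at each time (9, 1 and 0 of all genes). The median log2 fold change of the 20 Hox genes was -0.14 at 1 d, -0.03 at 3 d and -0.18 at 7 d, beside -0.006, -0.005 and -0.006 over all genes. The 3 comparisons share the 4 sham samples, of which 3 were reverse transcribed in another year than every 1 d and 3 d sample. With that year as a term, 0 Hox genes were called at each time (1, 1 and 0 of all genes).

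The interval was narrowest for Hoxc9. Its level in the sham samples was 56.0, 53.6, 54.7 and 37.7 CPM, and it was 55.7, 52.7, 55.5 and 49.5 CPM at 1 d, 52.9, 49.2 and 57.7 CPM at 3 d, and 55.3, 45.9, 63.7, 50.5 and 47.9 CPM at 7 d. The groups overlapped throughout, and log2 fold changes were 0.02 (95% interval -0.27 to 0.31), 0.05 (-0.26 to 0.37) and 0.01 (-0.27 to 0.28). Hoxb7 was 30.2, 29.8, 31.7 and 10.5 CPM in sham and 40.9, 15.0, 59.1, 41.9 and 35.0 CPM at 7 d, a log2 fold change of 0.54 (-0.15 to 1.22, adjusted p = 1.000). Sham sample Xin, the low one, had 1 NF-like neuron among its 24 cells (4.17%), and the SNC 7 d samples at 40.9, 15.0, 59.1, 41.9 and 35.0 CPM had 10 of 24, 3 of 24, 18 of 48, 6 of 48 and 14 of 96. The samples at 40.9 and 15.0 CPM were 19-1 and 19-2, by their labels mostly directly and mostly indirectly injured cells. The part of the type shares and of this injury make-up in these levels was not tested. Within PEP1-like neurons Hoxb7 was at 39.3 ± 19.0 CPM in sham (n = 4), 36.7 ± 19.2 CPM at 1 d (n = 4), 51.4 ± 6.35 CPM at 3 d (n = 3) and 53.1 ± 14.3 CPM at 7 d (n = 5), with overlapping groups and no test.

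Hoxd10 had the widest intervals among the genes over 10 CPM. Its sham samples had 18.9, 19.9, 9.53 and 13.5 CPM, the 1 d samples 8.80, 11.1, 49.2 and 25.2 CPM, the 3 d samples 4.84, 28.0 and 12.2 CPM, and the 7 d samples 11.4, 10.9, 13.6, 2.66 and 42.5 CPM. The log2 fold changes were 0.50 (-0.92 to 1.93), -0.05 (-1.58 to 1.48) and 0.01 (-1.34 to 1.36). Every group of SNC samples reached both above and below the sham range.

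The genes under an unadjusted p of 0.05 were Hoxc11 at 1 d and 7 d and Hoxd11 at 7 d. Hoxc11 was at 15.8 CPM in sham sample 4 and at 0.582, 0.945 and 0 CPM in the other sham samples, against at most 0.115 CPM at 1 d and 0.138 CPM at 7 d. Its log2 fold changes of -6.87 (adjusted p = 0.518) and -6.03 (adjusted p = 1.000) therefore rested on few sham cells, mostly the 2 of sample 4 named above, and the gene passed the filter on low counts through few samples: without sample 4 or without sample 18 it was not tested, so nothing is read from its fold and p. Hoxd11 was at 5.00 CPM in sham sample Xin and 1.02 to 1.18 CPM in the other 3, against 0 to 1.05 CPM at 7 d (log2 fold change -2.59, SE 0.86, adjusted p = 1.000), and without Xin its log2 fold change was -1.71.

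**Figure D5:**
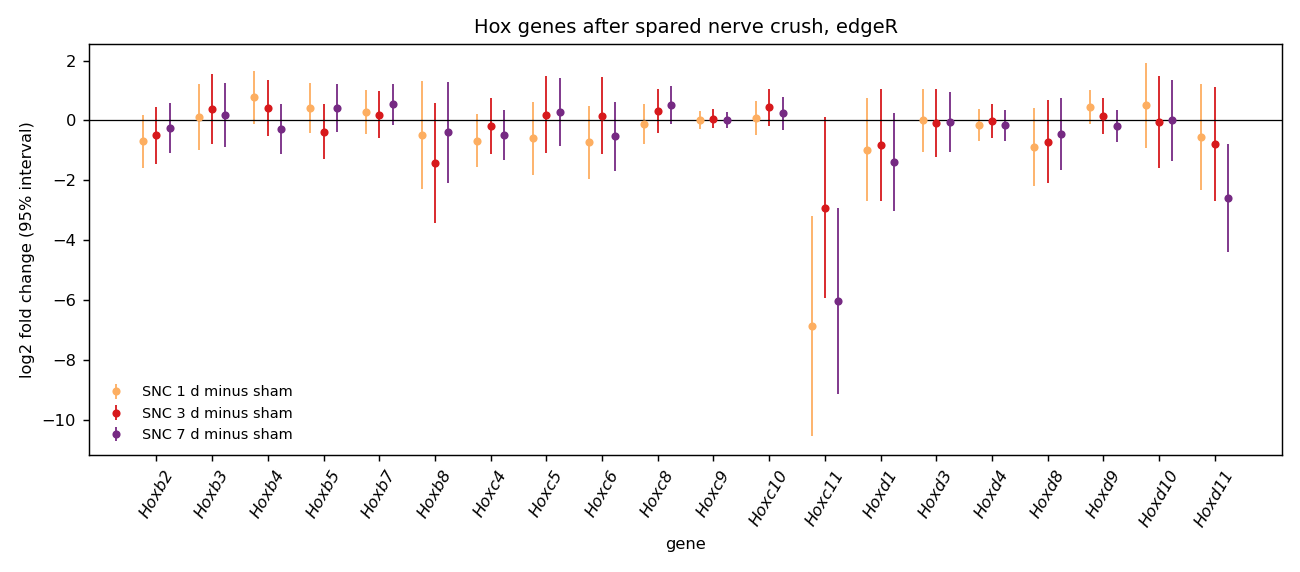
Log2 fold change of SNC at 1, 3 and 7 d against sham (vertical axis) for each of the 20 Hox genes tested (horizontal axis), with 95% intervals from edgeR before any adjustment for the number of genes. Hoxc9 intervals lie within -0.27 to 0.37 at all 3 times, and the intervals clear of 0 are those of Hoxc11 at 1 and 7 d and Hoxd11 at 7 d, none of which passed the adjusted test.

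The genes that work with or on the Hox genes were read beside them. None was called at 1, 3 or 7 d among 9 TALE cofactor genes, 25 of 26 Polycomb genes tested, 10 Trithorax genes with Ctcf, and 8 of 16 genes of retinoid signalling and axial patterning tested (edgeR); at an unadjusted p under 0.05 the counts were 0, 0 and 1 for TALE, 4, 1 and 0 for Polycomb, 0, 0 and 0 for Trithorax with Ctcf and 1, 1 and 2 for the retinoid list, and DESeq2 called none. Their median log2 fold changes lay between -0.11 and 0.29.

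The added sham libraries were set against the labelled sham samples in a separate fit. These sets differ in labelling, library series and cell make-up, which cannot be told apart here, and 40.6% of all genes tested were called (6415 of 15791) with a median log2 difference of 0.15. Of 20 Hox genes tested 3 were called, which is 15.0% and below that background. Hoxc8 was 12.2, 11.4, 13.7 and 7.495 CPM in labelled sham and 24.9 to 65.0 CPM with a median of 30.9 CPM in the 7 added libraries. The 2 sets did not overlap, and the log2 difference was 1.58 (SE 0.29, 95% interval 0.96 to 2.20, adjusted p = 0.001). Hoxc9 fell by 0.42 on the log2 scale (SE 0.15, adjusted p = 0.034), from 53.2 ± 7.34 to 39.8 ± 4.37 normalised CPM, with overlap; this call was lost in 8 of 17 alternatives, with adjusted p from 0.0057 to 0.267 over them. Hoxd11 was called lower (log2 difference -1.67, SE 0.61, adjusted p = 0.044), but without sham sample Xin the difference was -0.83 with an adjusted p of 0.261. Median log2 difference over the 20 Hox genes was 0.14, close to that of all genes.

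Hoxd1, in mammals known for its part in nociceptor wiring, had the largest log2 difference among the 20 Hox genes that passed the filter on low counts in this comparison (Hoxc11 did not pass it) but missed the threshold. It was at 3.08, 4.73, 32.6 and 0.250 CPM in labelled sham and at 10.9 to 75.6 CPM with a median of 55.0 CPM in the added libraries, with a log2 difference of 2.18 (SE 0.83, adjusted p = 0.051). Without sham sample 4, the one at 32.6 CPM, it was 3.87 with an adjusted p of 0.0025. Within NF-like neurons Hoxd1 was at 128 ± 32.2 CPM in 5 added libraries (74.1 to 154 CPM), at 11.7 ± 8.21 CPM in 12 labelled SNC samples and at 2.22, 6.74 and 74.0 CPM in 3 labelled sham samples, with no test. The NF-like cells of the sets are not alike: the added ones are 1 cluster led by Shox2, while the labelled ones join a Shox2 cluster, with Hoxd1 at 21.4 ± 34.5 CPM (n = 12, highest 122 CPM), and the S100a16 cluster, at 8.15 ± 6.29 CPM (n = 15), so that the Shox2 clusters overlapped in range. A Hoxd1 UMI was found in 22.2% of labelled and 82.7% of added cells, and in 4.63% and 36.5% after thinning. The added libraries S1 and S2, with 18.2 and 10.9 CPM, had no NF-like cell, and they were also the lowest in Hoxb7, at 2.64 and 5.88 CPM against 17.9 to 27.7 CPM in the other 5.

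Among the Hox cofactors, 6 of 9 TALE genes were called in this comparison, 5 higher and 1 lower in the added libraries. Pbx2 had a log2 difference of 2.39 (adjusted p = 8.36e-05) and Pknox2 of 2.05 (adjusted p = 0.0016). Meis3, the TALE gene with the most UMIs per sample in labelled neurons, was at 97.4 to 288 CPM in the labelled samples and 31.7 to 49.3 CPM in the added libraries, without overlap (log2 difference -2.18, adjusted p = 7.68e-05). Called in the other lists were 12 of 25 Polycomb genes (8 higher, 4 lower), 7 of 10 Trithorax genes with Ctcf (7 higher) and 5 of 10 retinoid and patterning genes (4 higher, 1 lower), beside the 40.6% of all genes.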

How the data were processed

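Single neurons were lysed one at a time and sequenced with a modified Smart-seq2 protocol that tags each transcript's 3′ end with a cell barcode and a UMI. The authors' deposited files hold UMI counts per gene and cell, not normalised; the submitters' processing notes name STAR, featureCounts of Subread, SAMtools, UMI-tools and Rnor_6.0. From the 24 libraries, 1433 of 1464 cells with at least 500 genes, 1000 UMIs and under 5% of UMIs from 13 mitochondrial genes were kept. No doublet caller was run, since cells were picked by hand. Libraries S-2 and S-3 are 1 sample. Counts summed per sample were tested with edgeR 4.0.16 (quasi-likelihood, TMM, filterByExpr, Benjamini-Hochberg over all genes); DESeq2 1.42.0 was an alternative. Fits were tested on simulated data in which some genes were changed by log2 1, 1.5 or 2. At 1 d, 44.4%, 56.1% and 74.6% of 63, 66 and 71 changed genes were found among 14239 tested. In the comparison of added libraries it was 20%, 39.4% and 62.3% of 65, 66 and 69 changed genes among 15791. These shares cover genes of all levels and not the Hox genes alone. Clusters came from Seurat 5.3.0 (resolution 0.5, 40 components). A cluster was named by the list with the largest share of markers above 1.5 times the other cells and seen in at least 25% of its own, if at least 3. Genes at 1 CPM or more over labelled samples are named with values, the rest by range. Labels do not say whether samples are separate animals, so p-values measure the spread between these samples. Members and lists were chosen with earlier results of these data known. Most sham samples were reverse transcribed in another year than the 1 d and 3 d samples; fits with that year or date as a term were alternatives. Some entries are not reported here.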

Additional observations from a re-analysis of the deposited data

Results flagged for a closer look

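Among 80 gene-by-group sets of 4 to 7 samples, 12 had a highest or lowest sample far from the rest. The measure was its gap to the nearest sample, divided by the range. Chance gives about 1 in 20, or 4, if the sets are independent and the values normally distributed. The sets share samples, so the 12 are not read as an excess over chance. Sham sample Xin was low in Hoxb7 (10.5 CPM, others 29.8 to 31.7) and Hoxc9 (37.7 CPM, others 53.6 to 56.0) and high in Hoxd11 (5.00 CPM, others 1.02 to 1.18). Xin was also the shallowest sample, with 4002503 UMIs in 24 cells, of which 29.2% fell in the unnamed cluster with glial markers. By the paper's sample list, Xin and SNC 7 d sample S were sequenced on an earlier date than all other labelled samples. Sham sample 4 was high in Hoxc11 (15.8 CPM, others 0 to 0.945) and Hoxd1 (32.6 CPM, others 0.250 to 4.73). Added library S4, in which 51.2% of cells were NF-like, was high in Hoxb8 (16.2 CPM, others 0.253 to 6.70), Hoxc4 (8.69 CPM, others 2.53 to 5.18), Hoxc5 (5.14 CPM, others 1.86 to 3.04) and Hoxc8 (65.0 CPM, others 24.9 to 37.3). SNC 7 d sample S was high in Hoxd3 (2.69 CPM, others 0.806 to 1.35) and Hoxd10 (42.5 CPM, others 2.66 to 13.6), and 11 of its 96 cells had at least 100 CPM of Hoxd10. SNC 7 d sample 9 was high in Hoxb4 (5.16 CPM, others 1.35 to 2.31). The part of cell make-up and of sequencing date in these values was not tested.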

How the results depend on the processing

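For each time after SNC there were 23 alternatives. They were other size factors, DESeq2, no filter on low counts, and cells thinned to 20000 UMIs. Others had year or date of reverse transcription as a term, related samples merged, or each sample left out. In all of them 0 Hox genes were called, as in the main test, beside 0 to 9 of all genes. The thinned fits tested only 8 Hox genes, against 20 in the main test. For the added libraries against labelled sham the count of 3 Hox genes (6415 of all genes) became 5 with DESeq2 (7237 of all genes). It was 1 with only the libraries labelled day 0 (3410 of all genes). Without S1 and S2 (chosen after seeing the data) it was 5 (6566 of all genes). Leaving out each sample gave 1 to 5 Hox genes, beside 5051 to 6403 of all genes. The count was 1 without S3, S5 or S6 (Hoxc8 alone) and 5 without S1. The calls over all genes thus moved as well. Hoxc8 passed in all 17 alternatives (log2 difference 1.36 to 1.83), Hoxc9 failed in 8 of 17 and Hoxd11 in 9 of 16, and Hoxd1 passed in 7 of 17; the cause was not tested. The 28 genes detected became 23 with at least 3 UMIs in at least 2 libraries, the Hox sum of 242 CPM was 207 to 248 CPM over its alternatives, and the 7 genes highest in NF-like neurons became 8 at resolution 0.3. No result changed direction. No paired analysis was possible because replicate numbers follow accession order. A block on the reverse transcription date, which some sham and 7 d samples share, called 0 Hox genes at each time (1, 3 and 0 of all genes). Genes under 1 CPM are limited by depth. Intervals of fold changes come from the spread between samples, and the limit for a count of 0 covers counting error only.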

Other observations

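The 2 NP-like clusters of the added libraries differed in Hoxc8. The cluster led by Slc16a12, Iapp and Lpar3 (76 cells) had 17.5 ± 4.67 CPM and the one led by Cav1 and Sqor (58 cells) 58.3 ± 15.2 CPM (SD, n = 7 libraries), above the other cells of its library in 0 of 7 and 6 of 7. Their Hoxd10 ran the other way, at 34.2 ± 34.1 and 10.7 ± 11.1 CPM, with overlapping libraries. In the added cells Hoxd1 and Hoxb7, genes of different clusters, gave r = 0.55 over 503 cells, the highest value of any pair between clusters there.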
